A study of Homo sapiens with 4 samples.

Results

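The aminoacyl-tRNA synthetases form a set of 35 genes, 19 encoding cytosolic and 16 encoding mitochondrial enzymes. With earlier results of these data known, the genes were taken by name from the known human synthetases and not by their measured values. Of these, 32 had a probe set annotated to 1 gene symbol and 31 (17 cytosolic, 14 mitochondrial) had a mean signal above 300 units and were tested, among 8721 tested genes and 19775 gene symbols with such a probe set. The values come from HCT116, an established human colon carcinoma line, grown as multicellular spheroids (MCS) or as monolayers, with no treatment of either. There were 2 spheroid and 2 monolayer arrays, each from an independent culture, and the study's question was how gene expression in the spheroids, which have a quiescent and poorly oxygenated core, differs from that in monolayers. A spheroid array averages over the proliferating rim and the core, so fewer cells expressing a gene and less RNA per cell cannot be told apart.

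Each synthetase joins 1 amino acid to the tRNAs that carry it, which supplies the charged tRNAs for protein synthesis. Cytosolic enzymes serve the cytosolic ribosomes. Mitochondrial enzymes are also encoded in the nucleus, are imported, and serve the mitochondrial ribosomes, which make the mitochondrially encoded subunits of the respiratory chain. When amino acids run short or the endoplasmic reticulum is stressed, phosphorylation of eIF2-α raises translation of the transcription factor ATF4, and many of the cytosolic synthetase genes are known ATF4 targets. ATF4 binds with a C/EBP partner to a composite element with the letters TGATGNAA.

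This element was searched on both strands in RefSeq promoter windows of the GRCh38.p14 assembly, which run from 250 bases before to 50 bases after an annotated start. A window was at hand for 30 of the 35 genes. The element was present in 7 of 16 cytosolic synthetase genes (43.8%) and in 1 of 14 mitochondrial ones (7.14%, YARS2), compared with 4.46% of 27305 genes with a window. The 40 bases around it are shown for the 7 cytosolic genes because they did not share one call: IARS1 and NARS1 were lower below, AARS1, CARS1, GARS1 and TARS1 were not called, and MARS1 was not measured. The strand printed is that of the gene, written 5′ to 3′, and capitals mark the element in either orientation.
AARS1 (chr16:70289670-70289709, minus strand): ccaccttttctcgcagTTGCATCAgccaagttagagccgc
CARS1 (chr11:3057402-3057441, minus strand): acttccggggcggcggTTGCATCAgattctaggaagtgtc
GARS1 (chr7:30594829-30594868, plus strand): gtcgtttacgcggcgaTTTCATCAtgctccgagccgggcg
IARS1 (chr9:92293687-92293726, minus strand): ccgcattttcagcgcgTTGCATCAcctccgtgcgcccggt
MARS1 (chr12:57488048-57488087, plus strand): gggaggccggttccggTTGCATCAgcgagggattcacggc
NARS1 (chr18:57621799-57621838, minus strand): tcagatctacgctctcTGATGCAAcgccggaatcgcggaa
TARS1 (chr5:33440951-33440990, plus strand): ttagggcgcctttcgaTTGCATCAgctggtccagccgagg
In AARS1 the element lay 187 bases before the start, and in the other 6 genes it lay within 33 bases of it. The same letters, TTGCATCA, were read in AARS1, CARS1, IARS1, MARS1 and TARS1, GARS1 had TTTCATCA, and NARS1 carried the element in the opposite orientation. A match of letters is a description and does not show binding.

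All 4 arrays had been scaled to a trimmed mean signal of 500.1 units, and 27.5% to 30.0% of probe sets were above 300 units. Arrays of the same group correlated across genes at 0.979 in spheroids and 0.984 in monolayers, and arrays of different groups at 0.889 to 0.902. Of 9 epithelial colon markers, 5 were above 300 units (EPCAM, KRT8, KRT18, KRT19 and CDH1), with summed signals of 91442 to 95278 in spheroids and 80660 to 88402 in monolayers, whereas the intestinal differentiation markers CDX2, VIL1, CDH17 and LGALS4 were below it. No leukocyte marker (of 5) or endothelial marker (of 3) was above it, and of 6 fibroblast markers only COL1A1 was, with summed fibroblast signals of 2413 and 2776 in spheroids and 1098 and 803 in monolayers. The ratio of 3′ to 5′ signal of ACTB, a sign of RNA quality, was 2.8 and 3.0 in spheroids and 2.6 and 2.3 in monolayers, and that of GAPDH was 0.931 and 0.921 in spheroids and 1.07 and 1.02 in monolayers. The part of the fibroblast markers and of these ratios in the results below was not tested.

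Synthetase transcripts were lower or not called in spheroids, and none was called higher. Of the 31 tested genes, 12 were lower in spheroids (38.7%; limma, adjusted p under 0.05, Benjamini-Hochberg over all genes), 0 were higher and 19 were not called, with a median log2 difference, spheroid minus monolayer, of -0.32. Among all 8721 tested genes, 20.6% were called lower and 19% higher (39.6% either way), and the median was -0.03. All 17 cytosolic and 8 of 14 mitochondrial synthetases had a mean signal above 1000 units, and of the 5186 tested genes above that level 28.4% were called lower. Both spheroid arrays lay below both monolayer arrays for 20 of the 31 and above them for 3, compared with 36.6% and 33.4% of all tested genes. The arrays are scaled to one mean, so every difference is relative to the total signal of an array. Bacillus spike-in controls were 1.87-fold brighter on spheroid arrays, but the replicates were apart. Their geometric means were 1871 and 1255 units on spheroid arrays and 746 and 897 units on monolayer arrays. With spike-in scaling 14 cytosolic and 11 mitochondrial synthetases were called lower, beside 41.9% of all genes, at a median over all genes of -0.91.

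Called decreases were found in both compartments, and the difference between the compartments was not tested. In the cytosolic group 8 of 17 were lower (47.1%), with a median of -0.38 and a range from -1.28 to 0.24, and in the mitochondrial group 4 of 14 (28.6%), with a median of -0.32 and a range from -0.75 to 0.14. The order of the medians was not stable: with quantile scaling they were -0.25 for the cytosolic and -0.44 for the mitochondrial enzymes, and without spheroid replicate 1 they were -0.39 and -0.47. The median standard error was 0.15 in the cytosolic and 0.21 in the mitochondrial group. The mitochondrial share is near the 20.6% of all genes and the 28.4% of genes above 1000 units, and is no result about these enzymes. Without spheroid replicate 1, the counts lower were 5 and 1, with 15.6% of all genes lower, and without monolayer replicate 2 they were 7 and 1, with 15.8% of all genes lower. A group reduced to 1 array takes its spread from the other group.

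**Figure D1:**
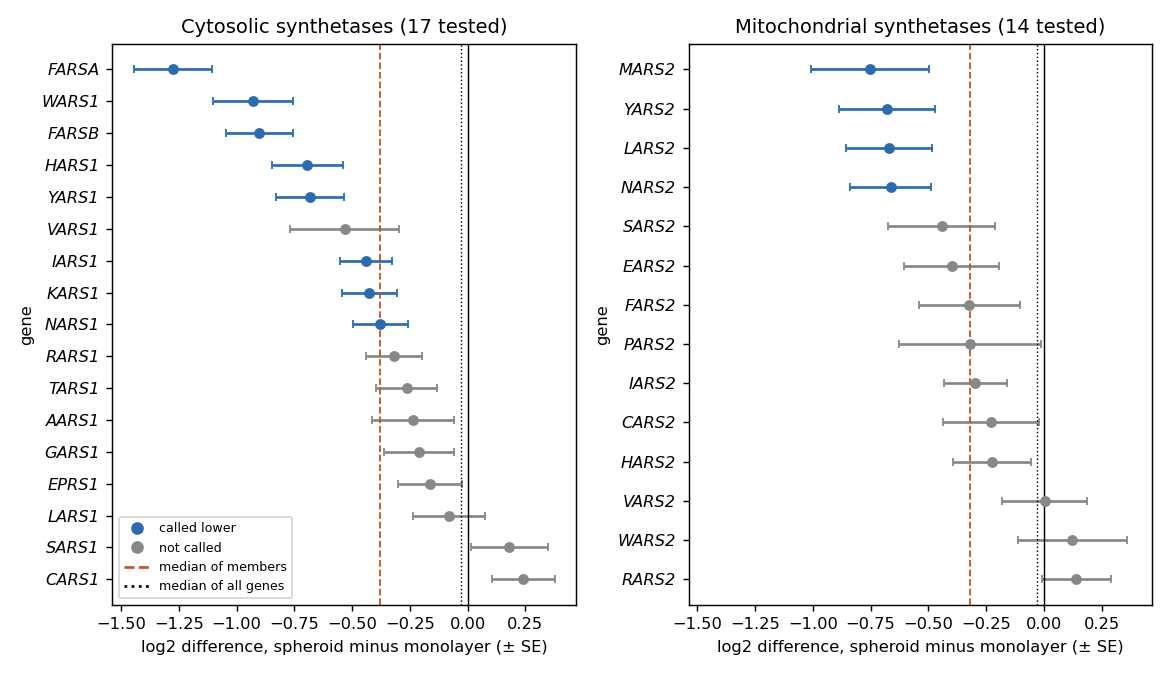
Log2 difference of each tested synthetase gene (x, spheroid minus monolayer, points with ± SE, 2 arrays per group), with cytosolic enzymes on the left and mitochondrial enzymes on the right. Blue points are called lower (8 and 4) and grey points are not called; the dashed lines are the medians of the panel's genes (-0.38 and -0.32) and the dotted line is the median of all tested genes (-0.03).

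Both subunits of the cytosolic phenylalanyl-tRNA synthetase were among the 3 largest decreases. FARSA, the catalytic subunit, had signals of 934 and 981 units in spheroids, against 2353 and 2377 units in monolayers. The replicates were close to each other and the groups far apart. The log2 difference was -1.28 ± 0.17 (SE, limma adjusted p = 0.000122), which puts spheroids at 41.3% of monolayers. FARSB, the subunit that pairs with FARSA in the tetramer, had 4209 and 5148 units in spheroids, against 8196 and 9294 units in monolayers, and differed by -0.90 ± 0.14 (adjusted p = 0.000446). A further FARSA probe set was also lower (-0.95). A further FARSB probe set, dim at a mean of 352 units, gave 0.30 and was not called, and FARSB was not called when its probe sets were averaged (-0.30).

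WARS1, which charges tRNA with tryptophan and is known in human cells to be induced by interferon-γ, had 1095 and 1079 units in spheroids and 2234 and 1972 units in monolayers. Spheroids were at 52.5% of monolayers, the groups did not overlap, and the log2 difference was -0.93 ± 0.17 (limma adjusted p = 0.00118), with -0.99 on its other probe set. An interferon-stimulated response element, searched on both strands as GAAA, any 2 bases and GAAA again, was present at the second annotated start of WARS1 and in 4.38% of all genes with a window. It is printed here in capitals because WARS1 is the one cytosolic synthetase with these letters.
WARS1 (chr14:100375379-100375418, minus strand): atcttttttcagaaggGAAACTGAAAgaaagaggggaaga

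HARS1, the histidyl enzyme, had 3385 and 2757 units in spheroids and 5216 and 4726 units in monolayers, and differed by -0.69 ± 0.15 on the log2 scale (limma adjusted p = 0.00359). HARS2, its mitochondrial counterpart, is transcribed in the opposite direction from the same promoter region, and the start sites of both genes are separated by 84 bases. HARS2 had 1456 and 1645 units in spheroids and 1825 and 1799 units in monolayers, and was not called (-0.22 ± 0.17, adjusted p = 0.317). All 4 HARS2 signals kept the order of the groups, as did those of HARS1. The shared region is printed on the HARS1 strand, with the bases between both starts in capitals and 8 bases on each side.
HARS1 and HARS2 (chr5:140691363-140691462, minus strand): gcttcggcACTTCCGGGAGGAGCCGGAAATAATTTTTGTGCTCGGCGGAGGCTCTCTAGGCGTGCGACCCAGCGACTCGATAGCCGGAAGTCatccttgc

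YARS1, the tyrosyl enzyme, had 3669 and 3301 units in spheroids and 5149 and 6108 units in monolayers. It was at 62.3% of monolayers, with no overlap of the groups and a log2 difference of -0.68 ± 0.15 (limma adjusted p = 0.00312). FARSA, WARS1, HARS1 and YARS1 were called lower under each of the 15 alternative settings that were tried and gave a value for them.

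The other 3 cytosolic decreases were smaller. IARS1, the isoleucyl enzyme, had 13885 and 14201 units in spheroids, against 18354 and 19789 units in monolayers, and differed by -0.44 ± 0.11 (limma adjusted p = 0.00776). KARS1, which encodes both the cytosolic and the mitochondrial lysyl enzyme, had 26986 and 27954 units in spheroids, against 32800 and 41498 units in monolayers, and differed by -0.43 ± 0.12 (adjusted p = 0.0138). NARS1, the asparaginyl enzyme, had 12882 and 13675 units in spheroids, against 15974 and 18624 units in monolayers, and differed by -0.38 ± 0.12 (adjusted p = 0.0252). In all 3 the spheroid replicates were within a narrow range below both monolayer arrays, and the log2 differences put spheroids at 73.7% to 77.0% of monolayers. IARS1 was not called without spheroid replicate 1 (-0.42). KARS1 and NARS1 were not called without spheroid replicate 1 (-0.40 and -0.33), spheroid replicate 2 (-0.45 and -0.42) or monolayer replicate 2 (-0.26 and -0.27). With all 4 arrays, none of the 3 was called with no intensity trend or against a fold threshold of 1.2, KARS1 and NARS1 were not called with no filter, and NARS1 was not called with quantile scaling (-0.25).

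IARS1 and KARS1 belong to the multisynthetase complex, in which several cytosolic enzymes are held together by the scaffold proteins AIMP1, AIMP2 and EEF1E1. Of the 5 tested enzymes of the complex, 2 were lower (40%, beside 20.6% of all genes) and the median was -0.32. The others were RARS1, the arginyl enzyme (-0.32 ± 0.12, limma adjusted p = 0.0549), EPRS1, which charges both glutamate and proline (-0.16 ± 0.14), and LARS1, the leucyl enzyme (-0.08 ± 0.16). RARS1 had 12617 and 13065 units in spheroids, below both monolayer arrays at 14715 and 17406 units, and missed the threshold by little. It was called lower without monolayer replicate 1 (-0.44). LARS1 has 4 probe sets above 300 units, which gave -0.08, 0.09, 0.26 and 0.14, none of them called. AIMP1 itself was not called (-0.19 ± 0.13), although another of its probe sets was lower (-0.62). Of the 12 cytosolic enzymes outside the complex, 6 were lower (50%) and the median was -0.45. Without spheroid replicate 1 no enzyme of the complex was called, and without spheroid replicate 2 or monolayer replicate 2 there was 1, against 3 without monolayer replicate 1.

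The cytosolic enzymes for alanine, cysteine, glycine, serine, threonine and valine were not called. AARS1, GARS1 (which also encodes the mitochondrial glycyl enzyme) and TARS1 differed by -0.24 ± 0.18, -0.21 ± 0.15 and -0.26 ± 0.13. VARS1 had 1362 and 1048 units in spheroids, against 2253 and 1347 units in monolayers, so that the groups overlapped and the difference of -0.53 ± 0.24 was not called (limma adjusted p = 0.0924). Without monolayer replicate 2, VARS1 was called lower (-0.90). CARS1, the cysteinyl enzyme, was the highest of the set, with 7836 and 6667 units in spheroids, both above the 5813 and 6422 units in monolayers, and a difference of 0.24 ± 0.14 that was not called (adjusted p = 0.184), although with quantile scaling it was called higher (0.36). SARS1 gave 0.18 ± 0.17 on one probe set and -0.04 on another, and both CARS1 and SARS1 were negative with spike-in scaling (-0.66 and -0.72). MARS1 and QARS1 could not be measured, because their probe sets are annotated to further gene symbols.

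**Figure D2:**
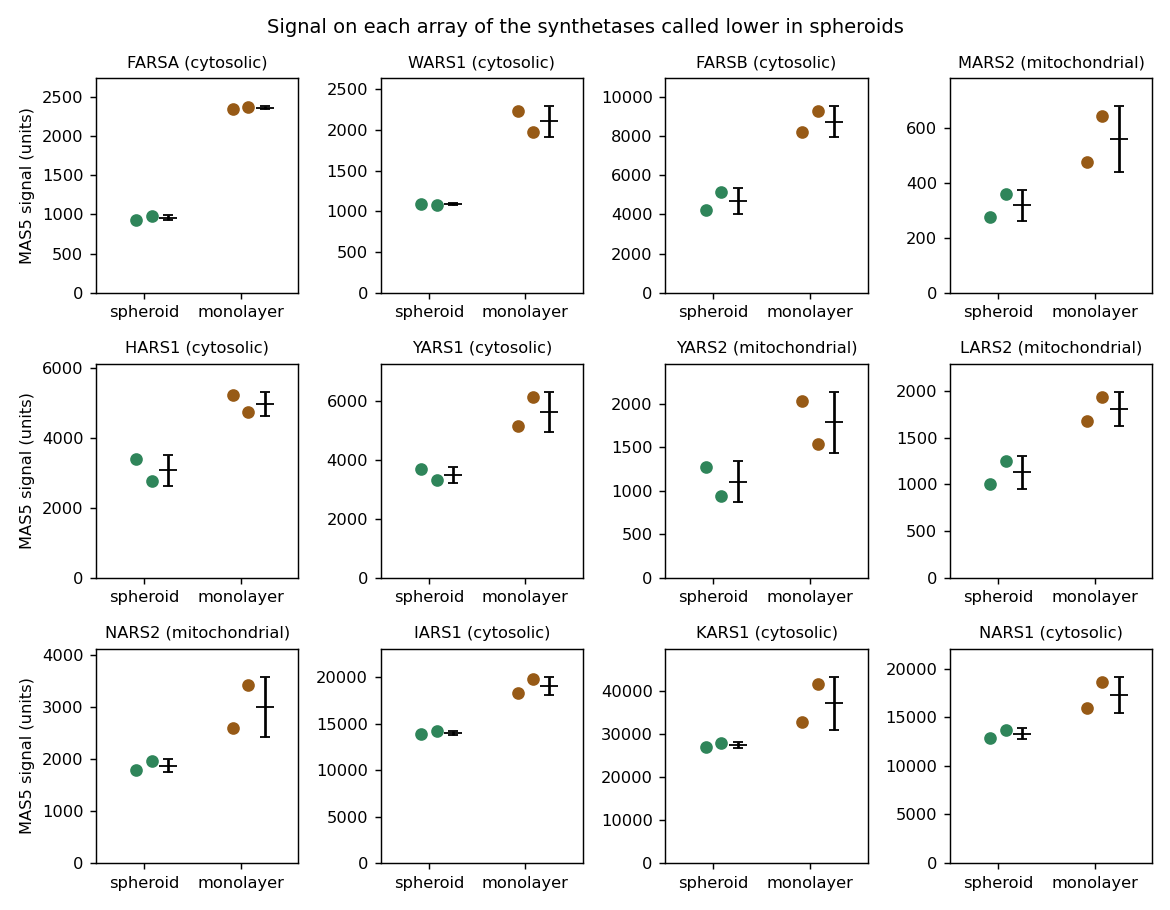
MAS5 signal (y, units, axis from 0) on each array of the 12 synthetases called lower, with 2 spheroid arrays (green) left of 2 monolayer arrays (brown) and the mean ± SD beside each group. In each panel both spheroid points lie below both monolayer points. By the log2 differences, spheroids are at 41.3% of monolayers in FARSA to 77.0% in NARS1.

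Decreases were found among known ATF4 targets as well as among the other cytosolic synthetases. Among 11 tested enzymes listed as ATF4 targets, 4 were lower (2 without spheroid replicate 1), 0 were higher and the median was -0.24. Among the other 6, which were FARSA, FARSB, HARS1, KARS1, RARS1 and VARS1, 4 were lower and the median was -0.61. YARS1 (-0.68, called lower), VARS1 (-0.53) and LARS1 (-0.08) had no promoter window and are left out of the next counts. Sorted by the element printed above, 2 of 6 tested cytosolic genes that carry it were lower (IARS1 and NARS1), with a median of -0.25. Of those that do not carry it, 5 of 8 were lower, with a median of -0.56. These groups are small, their difference was not tested, and without spheroid replicate 1 the counts were 0 with and 4 without the element. ATF4 mRNA had 17305 and 19225 units in spheroids and 14542 and 19267 units in monolayers, and did not pass the test (0.12 ± 0.14), which says nothing of its translation. Of 18 other tested ATF4 targets, 5 were higher (3 without spheroid replicate 1) and 5 lower, or 27.8% each way beside 19% and 20.6% of all genes. Their median was -0.09, but -0.30 without spheroid replicate 1 and 0.06 without spheroid replicate 2, and with spike-in scaling 1 was higher and 8 were lower (median -0.97).

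The mitochondrial enzymes called lower were those for methionine, tyrosine, leucine and asparagine. MARS2 had 277 and 359 units in spheroids and 475 and 644 units in monolayers, and differed by -0.75 ± 0.26 on the log2 scale (limma adjusted p = 0.0337). YARS2 had 1271 and 940 units in spheroids and 2038 and 1537 units in monolayers, a difference of -0.68 ± 0.21 (adjusted p = 0.0207). The replicates of both genes were well apart within each group, but the groups did not overlap.

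LARS2 had 1004 and 1253 units in spheroids and 1678 and 1942 units in monolayers, and differed by -0.67 ± 0.19 (limma adjusted p = 0.0129), with -0.86 on its other probe set. NARS2 had 1785 and 1958 units in spheroids and 2598 and 3418 units in monolayers, a difference of -0.66 ± 0.17 (adjusted p = 0.00956). The differences of these 4 genes lay close together and put spheroids at 59.3% to 63.1% of monolayers. None of the 4 calls held against every left-out array. Without spheroid replicate 1, MARS2 (-0.58), LARS2 (-0.52) and NARS2 (-0.60) were not called, and likewise without monolayer replicate 2 (-0.55, -0.57 and -0.47). YARS2 was not called without spheroid replicate 2 (-0.47) or monolayer replicate 1 (-0.48).

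The other 10 tested mitochondrial enzymes ranged from -0.44 to 0.14, and 7 of them were negative. SARS2 (-0.44 ± 0.23), EARS2 (-0.40 ± 0.21), FARS2 (-0.32 ± 0.22) and IARS2 (-0.30 ± 0.14) had both spheroid signals below both monolayer signals, without passing the test. The other 2 EARS2 probe sets above 300 units gave -0.60 and -0.58, and EARS2 was called lower as the mean of its probe sets (-0.52). PARS2, the prolyl enzyme, had 379 and 192 units in spheroids and 346 and 347 units in monolayers, so its difference of -0.32 ± 0.31 rests on spheroid replicate 2 and was 0.12 without it. CARS2 differed by -0.23 ± 0.21. RARS2 (0.14 ± 0.15), WARS2 (0.12 ± 0.24) and VARS2 (0.0042 ± 0.18) were at or slightly above 0, all 3 were negative with spike-in scaling, and WARS2 and VARS2 also with quantile scaling. AARS2, the alanyl enzyme, was below the filter, with 170 and 263 units in spheroids and 336 and 273 units in monolayers on the brighter of its probe sets. TARS2 could not be measured, for the same reason as MARS1.

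The cytosolic and mitochondrial enzymes for the same amino acid could be set side by side in 14 pairs covering 13 amino acids. EPRS1 was in 2 of them because it charges both glutamate and proline. FARS2 was in 2 because both FARSA and FARSB were set beside it. Both partners were lower for asparagine (NARS1 -0.38, NARS2 -0.66) and tyrosine (YARS1 -0.68, YARS2 -0.68), which gave 2 pairs. In 5 pairs the cytosolic gene alone was called, namely FARSA (-1.28) and FARSB (-0.90) beside FARS2 (-0.32), HARS1 (-0.69) beside HARS2 (-0.22), IARS1 (-0.44) beside IARS2 (-0.30) and WARS1 (-0.93) beside WARS2 (0.12). In 1 pair the mitochondrial gene alone was called, LARS2 (-0.67) beside LARS1 (-0.08). Neither partner was called for cysteine (CARS1 0.24, CARS2 -0.23), arginine (RARS1 -0.32, RARS2 0.14), glutamate (EPRS1 -0.16, EARS2 -0.40), proline (EPRS1 -0.16, PARS2 -0.32), serine (SARS1 0.18, SARS2 -0.44) and valine (VARS1 -0.53, VARS2 0.0042). The cytosolic value was the more negative in 8 of the 14 pairs, and the differences between partners were not tested.

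**Figure D3:**
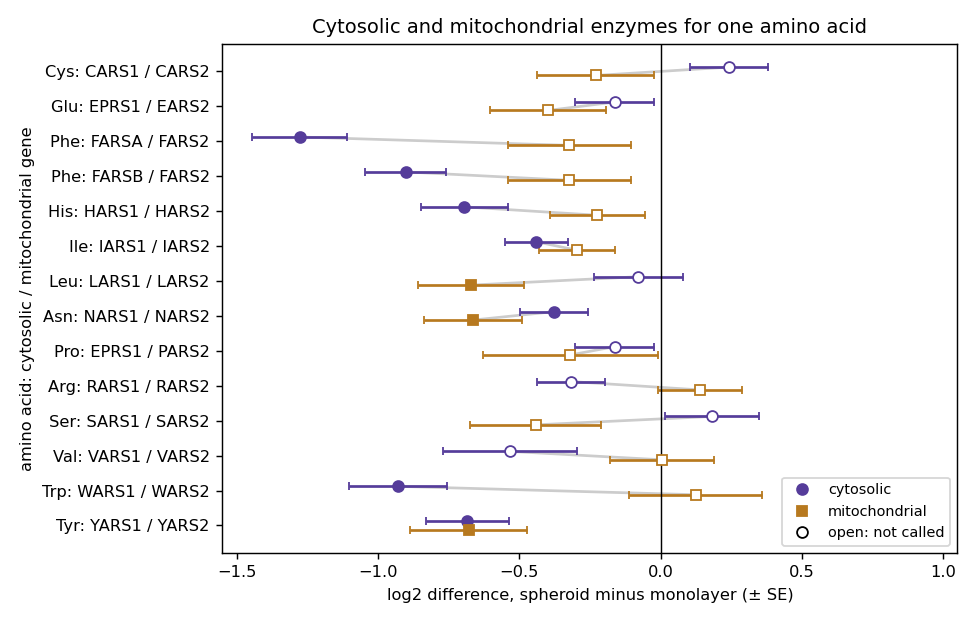
Log2 difference (x, spheroid minus monolayer, ± SE, 2 arrays per group) of the cytosolic (circles) and mitochondrial (squares) synthetase for each amino acid with both tested, joined by a grey line. Filled symbols are called lower; both are filled for asparagine and tyrosine, and the widest gaps are those of tryptophan (-0.93 and 0.12) and phenylalanine (FARSA -1.28, FARS2 -0.32).

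The structural class of the enzymes, class I with a Rossmann fold or class II with antiparallel strands around the active site, gave the same number of calls. In class I 6 of 16 were lower (37.5%), with a median of -0.36 (-0.31 with quantile scaling). In class II 6 of 14 were lower (42.9%), with a median of -0.35 (-0.46 with quantile scaling). Among all genes 20.6% were lower, and 28.4% of those above 1000 units. Without spheroid replicate 1 each class had 3 lower, and without monolayer replicate 2 there were 5 in class I and 3 in class II. EPRS1, which joins an enzyme of each class in one protein, was left out here.

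Of 27 listed genes that act beside the synthetases, 21 were tested, of which 7 were lower (33.3%, beside 20.6% of all genes) and 1 was higher, with a median of -0.22. Of those known to act in mitochondria, QRSL1, GATB, MTFMT, TUFM and TSFM were lower, and GATC, PPA2 (-0.26) and TRNT1 (-0.22), which also serves the cytosol, were not called. Mitochondria have no dedicated glutaminyl-tRNA synthetase. EARS2 first loads glutamate on that tRNA and the amidotransferase GatCAB converts it to glutamine. QRSL1, the catalytic subunit of GatCAB, had 775 and 983 units in spheroids and 1558 and 1961 units in monolayers. It differed by -0.98 ± 0.20 (limma adjusted p = 0.00216). Other QRSL1 probe sets above 300 units gave -0.63, not called, and -1.31, called lower. GATB, the tRNA-binding subunit of GatCAB, differed by -0.70 ± 0.23 (limma adjusted p = 0.0257). The small subunit GATC differed by -0.37 ± 0.21 and was not called (adjusted p = 0.178). Another GATC probe set above 300 units had the opposite sign (0.36) and was not called. MTFMT, which formylates the methionyl-tRNA made by MARS2, differed by -0.60 ± 0.22 (adjusted p = 0.0426).

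The elongation factor TUFM, which brings charged tRNAs to the mitochondrial ribosome, had 7325 and 5186 units in spheroids and 10189 and 9331 units in monolayers (-0.66 ± 0.16, limma adjusted p = 0.00627). TSFM, which recycles TUFM, had 1231 and 1429 units in spheroids and 2078 and 2396 units in monolayers (-0.74 ± 0.17, adjusted p = 0.00527). In both genes the groups were apart. EEF1A1, the cytosolic counterpart of TUFM, was not called on its brightest probe set (0.18 ± 0.10). Its dimmer probe sets above 300 units gave 0.19, 0.17 and 0.14, not called, and 0.94, called higher. GCN1, which helps the kinase GCN2 sense uncharged tRNA on ribosomes, was lower (-0.70 ± 0.18, limma adjusted p = 0.00948). Another GCN1 probe set gave -0.43 and was not called. The transcript of GCN2, EIF2AK4, was not called (-0.09 ± 0.17). The remaining calls, the tRNA exporter XPOT (-0.37 ± 0.13) and PTRHD1 (0.56 ± 0.15, negative at -0.33 with spike-in scaling), fall outside the rule for named genes and were chosen after their values were seen. Of these 8 calls, QRSL1 and TSFM were kept whichever array was left out. MTFMT and GCN1 were not called without spheroid replicate 1 (-0.34 and -0.43), TUFM and GATB without spheroid replicate 2 (-0.41 and -0.50), and GATB also without monolayer replicate 1 (-0.69). Without monolayer replicate 2, MTFMT (-0.48), GATB (-0.72) and PTRHD1 (0.48) were not called. XPOT was not called whichever of the 4 arrays was left out (-0.40 to -0.35). The count of genes lower was 4 without spheroid replicate 1, spheroid replicate 2 or monolayer replicate 2.

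The ribosomal proteins, which use the charged tRNAs, were set beside the synthetases of their compartment. The mitochondrial synthetases had 4 of 14 lower and a median of -0.32, compared with 53 lower and 0 higher of 75 tested mitochondrial ribosomal protein genes at a median of -0.61. Of those 75 genes, 45 to 49 were lower when any 1 array was left out, and 23 when probe sets ending in _x_at or _s_at were left out and fewer genes tested. The cytosolic synthetases had 8 of 17 lower, 0 higher and a median of -0.38, compared with 0 lower and 8 higher of 51 tested cytosolic ribosomal protein genes at a median of 0.19. Of the mitochondrial ribosomal protein genes 70.7% were lower, beside 20.6% of all genes. Of the cytosolic ones 15.7% were higher, beside 19% of all genes. The sign of the cytosolic ribosomal proteins rests on the scaling, since their median was 0.04 with quantile scaling and -0.72 with spike-in scaling. Their count of genes higher rests on single arrays, being 1 without spheroid replicate 1, 0 without spheroid replicate 2, 4 without monolayer replicate 1 and 29 without monolayer replicate 2. No difference between these lists was tested.

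**Figure D4:**
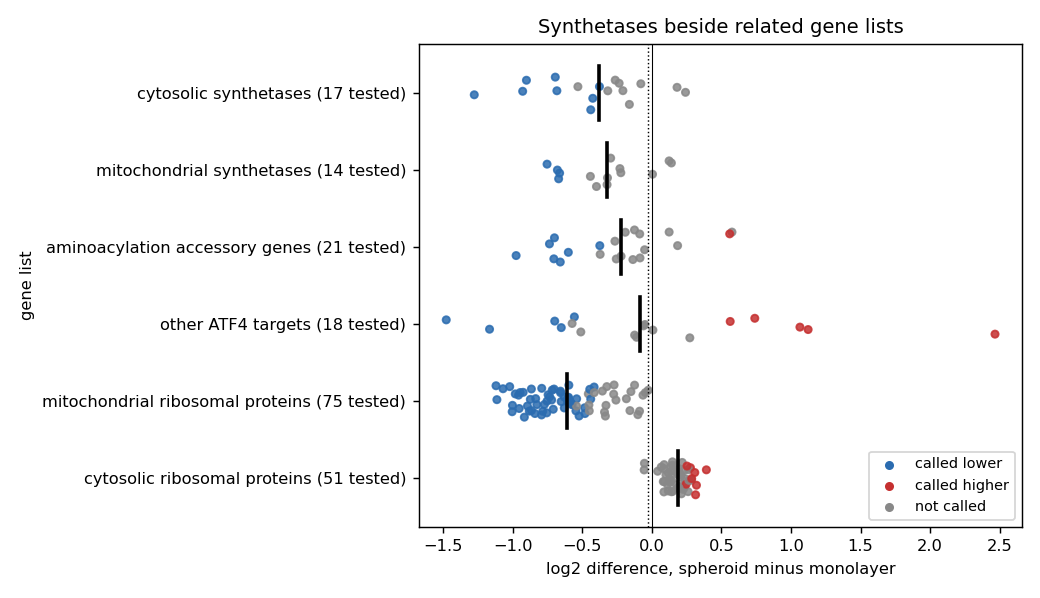
Log2 difference (x, spheroid minus monolayer) of every tested gene in 6 lists (y), with the list's median as a thick bar and the median of all tested genes (-0.03) as a dotted line; blue is called lower, red called higher and grey not called, and vertical scatter within a row has no meaning. The mitochondrial ribosomal proteins have the lowest median of the lists shown (-0.61) and the cytosolic ribosomal proteins the highest (0.19, negative with spike-in scaling).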

How the data were processed

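Total RNA from 2 spheroid and 2 monolayer cultures of HCT116 cells was hybridized to 1-colour Affymetrix arrays. The authors normalized the arrays with MAS5 and deposited 1 linear intensity for each probe set. The sources used here name no MAS5 version. Each array had the same mean without its lowest and highest 2%, which removes any change in total mRNA per cell.

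Of 54675 probe sets, 62 were controls, and 41091 had 1 gene symbol, 1801 several and 11721 none in the platform annotation. Symbols were checked by gene ID against RefSeq, and 0 changed. Only probe sets with 1 symbol and a 4-array mean above 300 units, the level the study's methods also use, were kept, with the brightest representing each gene. Levels were not compared between genes. Spheroid minus monolayer was fitted on log2(signal + 32), a scale that shrinks differences of dim genes, with limma (3.58.1, R 4.3.3; lmFit, eBayes with an intensity trend, two-sided, Benjamini-Hochberg over 8721 genes, threshold 0.05), with 2 residual and 10.5 prior degrees of freedom. The fit was tested on simulated data. The number of arrays limits the precision. No values were shared between arrays (0 identical).

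The members and the gene lists were chosen with earlier results of these data known, and no test was made over a list. Every member is accounted for; called members have their array values, and of the accessory genes the 6 with the largest called differences are named. Accessory genes with no probe set of 1 symbol were left out. Promoter windows came from a RefSeq table (GRCh38.p14). Alternatives were other filters, constants, scalings (quantile, spike-in), probe set rules, no trend, a fold threshold, the replicate number as a block and each array left out. The authors' detection calls were not used.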

Additional observations from a re-analysis of the deposited data

How the results depend on the processing

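Of the 12 synthetases called lower, 4 (FARSA, HARS1, WARS1 and YARS1) were called under each of the 15 alternatives that gave a value, 5 (these and FARSB) whichever array was left out, and 7 were lost without some array; all 177 alternative values of the 12 were negative. With 2 arrays a group the median standard error over all genes was 0.19, and the smallest difference called among the synthetases was that of NARS1 (-0.38). Over the left-out arrays, 1208 to 1502 of all genes were higher and 1362 to 1484 lower, 5 to 9 cytosolic enzymes were lower (median -0.45 to -0.26) and 1 to 3 mitochondrial ones (median -0.47 to -0.24), and 0 of either were higher. With no filter 2 mitochondrial enzymes were lower, beside 6.66% of the 19775 genes then tested. With quantile scaling the cytosolic median was -0.25 and 1 cytosolic enzyme was higher (CARS1, 0.36). With spike-in scaling 157 of all genes were higher and 3656 lower, with 14 cytosolic and 11 mitochondrial enzymes lower (medians -1.28 and -1.19). When probe sets ending in _x_at or _s_at were left out, 1114 of all genes (fewer genes tested) and 5 cytosolic enzymes were lower. With no intensity trend 5 cytosolic enzymes were lower, beside 17.5% of all genes. With a fold threshold of 1.2, 953 of all genes were higher and 902 lower, with 5 cytosolic and 0 mitochondrial enzymes lower. Except where the construction shows it, the cause was not tested. Signs turned for LARS1 (0.019), VARS2 (-0.020) and WARS2 (-0.047) with quantile scaling; for CARS1 (-0.66), SARS1 (-0.72), RARS2 (-0.75), VARS2 (-0.88), WARS2 (-0.71) with spike-in scaling; for LARS1 as the mean of its probe sets (0.10); and, by array left out, for LARS1 (0.019 without spheroid replicate 1, 0.089 without monolayer replicate 2), SARS1 (-0.046 without spheroid replicate 1; range to 0.41), PARS2 (0.12 without spheroid replicate 2; range from -0.76) and VARS2 (-0.0035 without spheroid replicate 2 and -0.12 without monolayer replicate 1; range to 0.13). None of these 7 genes was called in the main comparison. Among the other lists and genes, spike-in scaling turned PTRHD1 (-0.33) and the median of the cytosolic ribosomal proteins (-0.72), and the median of the other ATF4 targets turned to 0.0071 when those probe sets were left out and to 0.058 without spheroid replicate 2 (-0.30 to 0.058 over the arrays left out).

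The labels' replicate numbers were not stated to mark a shared batch or day, and there were only 2 pairs. Same-numbered arrays deviated together with a correlation of 0.323. With the replicate number as a block, 10 cytosolic and 5 mitochondrial enzymes were lower (medians -0.38 and -0.32), and 2114 of all genes were higher and 2301 lower. RARS1 and VARS1 of the cytosolic and IARS2 of the mitochondrial enzymes were then called as well.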
